A study of Homo sapiens with 22 samples.

Results

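The stretch of chromosome 6 that carries the large histone gene cluster was examined in AN3CA cells, an established human endometrial carcinoma line, as the window from position 26000000 to 28000000 of hg19. Every deposited CUT&Tag peak that shared at least 1 bp with this 2 Mb window was taken, which gave 1612 of the 508791 peaks on chromosomes 1 to 22 and X in 22 lists. CUT&Tag uses an antibody to tether a transposase, so that DNA near the bound protein or modified histone is cut and sequenced. Each list came from 1 library of 1 antibody, and its values are those of the authors' peak caller for that library.

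Cells expressed 1 of 5 forms of ARID1A, a subunit of the BAF chromatin remodeler, or carried an empty vector. The forms, as named in the labels, were the wild-type protein (WT), a mutant of the ARID DNA-binding domain (DBDmut), truncations named delIDR1 and CBR, and a hybrid with a DDX4 intrinsically disordered region (DDX4). Each form had 1 library for SMARCA4, 1 for SMARCC1 and 1 for H3K27ac, and the empty vector (Empty) had 2 replicates of each. An HA library, made with an antibody to the tag on ARID1A, was analysed for DDX4 cells. The labels give neither the promoter that drives a construct nor whether the Empty replicates came from separate cultures. Differences between them may therefore be technical, and no form can be tested alone. Peak names begin with 1 of 3 stamps whose meaning the labels do not give: WT, DBDmut, delIDR1, CBR and Empty replicate 1 share the first, DDX4 has the second and Empty replicate 2 the third. Stamp and construct cannot be told apart for DDX4, nor stamp and replicate for Empty. Peak lists hold no markers with which to check the cell line.

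The window is known for the genes of the core histones H2A, H2B, H3 and H4 and of the linker histone H1. These genes are intronless, are transcribed mostly during DNA replication, and give mRNAs that end in a stem-loop and not in a poly(A) tail. SMARCA4 is an ATPase that drives BAF remodeling, SMARCC1 is a core scaffold subunit, and H3K27ac marks active promoters and enhancers. ARID1A is found only in the canonical form of BAF, while SMARCA4 and SMARCC1 also belong to other forms. In RefSeq (GRCh38.p14), protein-coding histone genes of this chromosome stand in 3 runs. Only the histone genes of a run are counted: other genes within it are not listed. Whether all of a run lies in the window was not checked. The first run, from H2AC1 to H4C8, holds 34 histone genes, of which 5 encode H1, 5 H2A, 9 H2B, 7 H3 and 8 H4. It is followed by 9 other protein-coding genes, among them the butyrophilin genes BTN3A2, BTN2A2, BTN3A1, BTN3A3, BTN2A1 and BTN1A1, whose products are membrane proteins of the immunoglobulin superfamily, and by HMGN4, which encodes a nucleosome-binding protein. The next run holds 5 histone genes and the last 16, with PRSS16, which encodes a thymic serine protease, and the zinc finger genes ZNF391 and ZNF184 between them. Only this order is used, because the build differs from that of the peaks: no peak described here is assigned to a gene.

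The window carried SMARCA4, SMARCC1 and H3K27ac peaks in every library, with or without an ARID1A form. SMARCA4 had 47 peaks with WT, 60 with DBDmut, 28 with delIDR1, 68 with CBR and 43 with DDX4, against 41 and 42 in Empty replicates 1 and 2. The forms lay on either side of the Empty replicates, with delIDR1 lowest and CBR highest. SMARCC1 had 71 peaks with WT, 73 with DBDmut, 46 with delIDR1, 72 with CBR and 57 with DDX4, against 62 and 82 in Empty. delIDR1 was again lowest, and Empty replicate 2 was highest. H3K27ac had 103 peaks with WT, 90 with DBDmut, 81 with delIDR1, 107 with CBR and 95 with DDX4, against 128 and 183 in Empty, so both Empty replicates lay above all 5 forms.

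These numbers follow the lengths of the whole lists in part. The lists ran from 5567 to 15207 peaks for SMARCA4, from 9685 to 23855 for SMARCC1 and from 31745 to 92057 for H3K27ac, the last being Empty replicate 2. Depth estimated from the fold and p-value of each peak ran from 0.913 to 1.94 fragments per kb for SMARCA4, from 1.32 to 3.29 for SMARCC1 and from 3.59 to 14.5 for H3K27ac. The deepest H3K27ac library was Empty replicate 2, at 14.5 fragments per kb, against 4.49 for WT. A peak that a shallower library lacks is therefore not detected there, which differs from absence of the protein or the mark.

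Scaled to 10000 peaks of its own list, the window held 36.3 SMARCA4 peaks with WT, 39.5 with DBDmut, 39.3 with delIDR1, 52.7 with CBR and 49.0 with DDX4, against 73.6 and 44.6 in Empty. Both values of Empty lay above those of WT, DBDmut and delIDR1, and Empty replicate 2 lay below CBR and DDX4. The mean was 43.3 ± 7.09 with ARID1A forms (SD, n = 5) and 59.1 ± 20.5 in Empty (SD, n = 2), a difference of -15.8 (two-sided exact permutation test over 21 labelings, p = 0.143, Benjamini-Hochberg adjusted over 3 antibodies p = 0.429). The scaled SMARCC1 values were 29.8, 38.7, 43.9, 60.1 and 58.9 in the forms in the same order, against 45.5 and 53.0 in Empty. Here the 2 groups overlapped throughout, with means of 46.3 ± 13.1 (SD, n = 5) and 49.2 ± 5.36 (SD, n = 2) and a difference of -2.98 (exact permutation test, p = 0.857, adjusted p = 0.857). The scaled H3K27ac values were 20.2, 23.0, 25.5, 26.1 and 26.2 in the forms, against 35.2 and 19.9 in Empty. The Empty replicates enclosed all 5 forms, with means of 24.2 ± 2.57 with ARID1A forms (SD, n = 5) and 27.5 ± 10.8 in Empty (SD, n = 2) and a difference of -3.35 (exact permutation test, p = 0.476, adjusted p = 0.714). No difference was set apart by this test, and 5 libraries against 2 allow no p below 0.0476. The 5 forms are different constructs with 1 library each, so their SD mixes differences between constructs with those between libraries. The SMARCA4 and H3K27ac differences were larger in size than the SD of the forms but smaller than that of Empty. The SMARCC1 difference was smaller than both. Among the libraries of the first stamp alone, the differences were -31.7 for SMARCA4, -2.33 for SMARCC1 and -11.5 for H3K27ac, where Empty is 1 library. Without Empty replicate 1 the 3 differences were -1.30, -6.77 and 4.32, and without Empty replicate 2 they were -30.3, 0.816 and -11.0, so the direction for SMARCC1 and H3K27ac rested on 1 Empty library. The SMARCC1 direction also turned without WT, to 1.15. Scaling does not remove list length where window peaks stand high in a list. The shortest SMARCA4 list had the highest scaled value, and the longest SMARCC1 and H3K27ac lists had the lowest. The longest SMARCA4 list was not lowest, and the shortest SMARCC1 and H3K27ac lists were not highest. With lists cut to the same length per antibody, the 3 differences kept their direction.

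**Figure D1:**
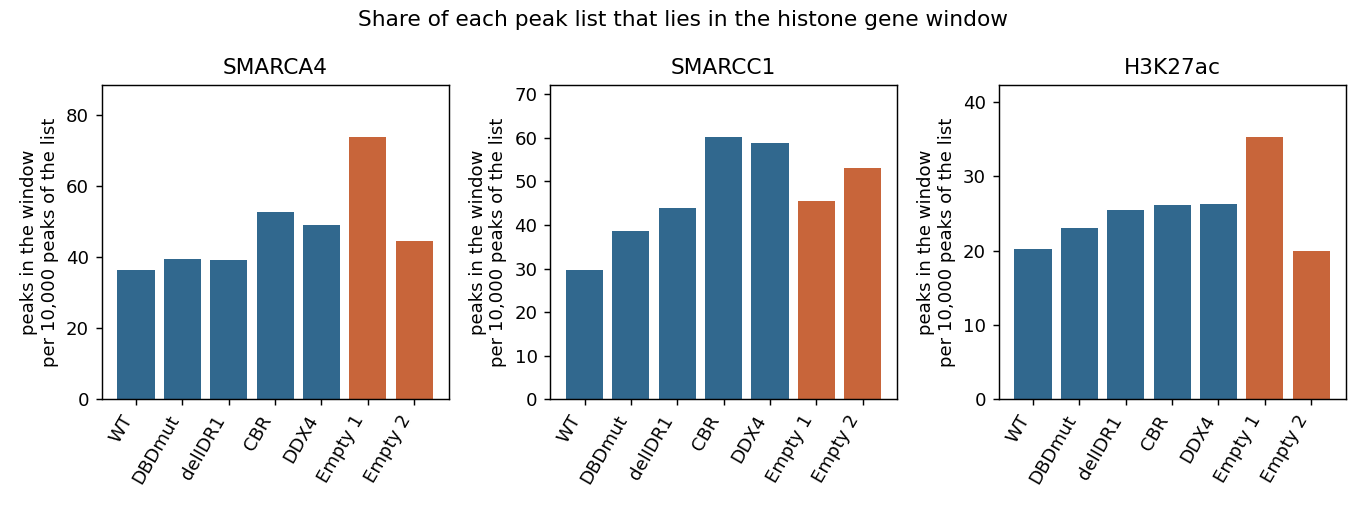
Peaks of the histone window per 10000 peaks of the same list (vertical axis) for SMARCA4, SMARCC1 and H3K27ac, 1 bar per library, with ARID1A forms left of the Empty replicates. Empty replicate 1 stood highest for SMARCA4 (73.6) and H3K27ac (35.2), and CBR stood highest for SMARCC1 (60.1).

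Measured in bases, SMARCA4 peaks covered 9.69 kb of the window in WT, 12.9 kb with DBDmut, 6.33 kb with delIDR1, 15.1 kb with CBR and 15.8 kb with DDX4, against 9.98 and 20.2 kb in Empty. SMARCC1 peaks covered 25.5, 20.5, 11.5, 15.1 and 13.3 kb in the forms in that order, against 16.1 and 35.7 kb in Empty. H3K27ac peaks covered 63.5, 64.0, 58.7, 49.9 and 69.0 kb in the forms, against 56.5 and 92.2 kb in Empty. Empty replicate 2 had the largest covered length for each of the 3 antibodies. The H3K27ac peaks of the window were wider than those of the whole list in every library: the median width was 419, 488, 594, 325 and 478 bp in the forms, against 311 and 332 bp in Empty, where the whole lists had medians of 318, 380, 393, 255 and 357 bp, against 215 and 280 bp. They also stood high in their lists, since the median window peak lay at 14.3% to 24.0% of the list counted from its strongest peak, in all 7 lists.

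H3K27ac was concentrated in the first 600 kb of the window. In bins of 100 kb, the bins from 26000001 to 26100000 and from 26100001 to 26200000 were the richest, with 11 to 22 and 13 to 21 peaks per library. The bin from 26700001 to 26800000 had 0 to 2 H3K27ac peaks and no SMARCA4 peak in any library. The last bin, from 27900001 to 28000000, held peaks only in the H3K27ac list of Empty replicate 2, which had 3. A second rich stretch lay between 27700001 and 27900000, with 8 to 12 and 6 to 11 H3K27ac peaks per library in its 2 bins.

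When neighbouring WT H3K27ac peaks were joined over the distance commonly used to stitch enhancers, the 103 peaks formed 42 domains, and the 8 domains with 5 or more peaks held 49 of them. The domain with most peaks ran from 26103485 to 26126528, 23.0 kb with 8 peaks. Domains with 7 peaks each ran from 26016676 to 26034593 (17.9 kb), from 26195531 to 26206783 (11.3 kb) and from 27082581 to 27115458 (32.9 kb).

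To see which positions were shared, peaks of 1 antibody that overlapped in any of its 7 libraries were merged into loci, 100 for SMARCA4, 118 for SMARCC1 and 194 for H3K27ac. A locus had a peak in all 7 libraries at 15 of 100 for SMARCA4 (15.0%, Wilson 95% interval 9.31 to 23.3%), against 5.82% of loci genome-wide. The count was 24 of 118 for SMARCC1 (20.3%, interval 14.1 to 28.5%), against 8.42% genome-wide. It was 52 of 194 for H3K27ac (26.8%, interval 21.1 to 33.4%), against 9.12% genome-wide. All 3 shares lay above the genome-wide share by more than their counting intervals. These intervals cover counting error only and treat neighbouring loci as independent, which they are not. Loci seen in 1 library only were fewer than genome-wide: 37 of 100 for SMARCA4, against 60.7%, 32 of 118 for SMARCC1 (27.1%, against 52.5%) and 83 of 194 for H3K27ac (42.8%, against 56.9%). Of the 83 H3K27ac loci, 62 came from Empty replicate 2, the longest list.

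**Figure D2:**
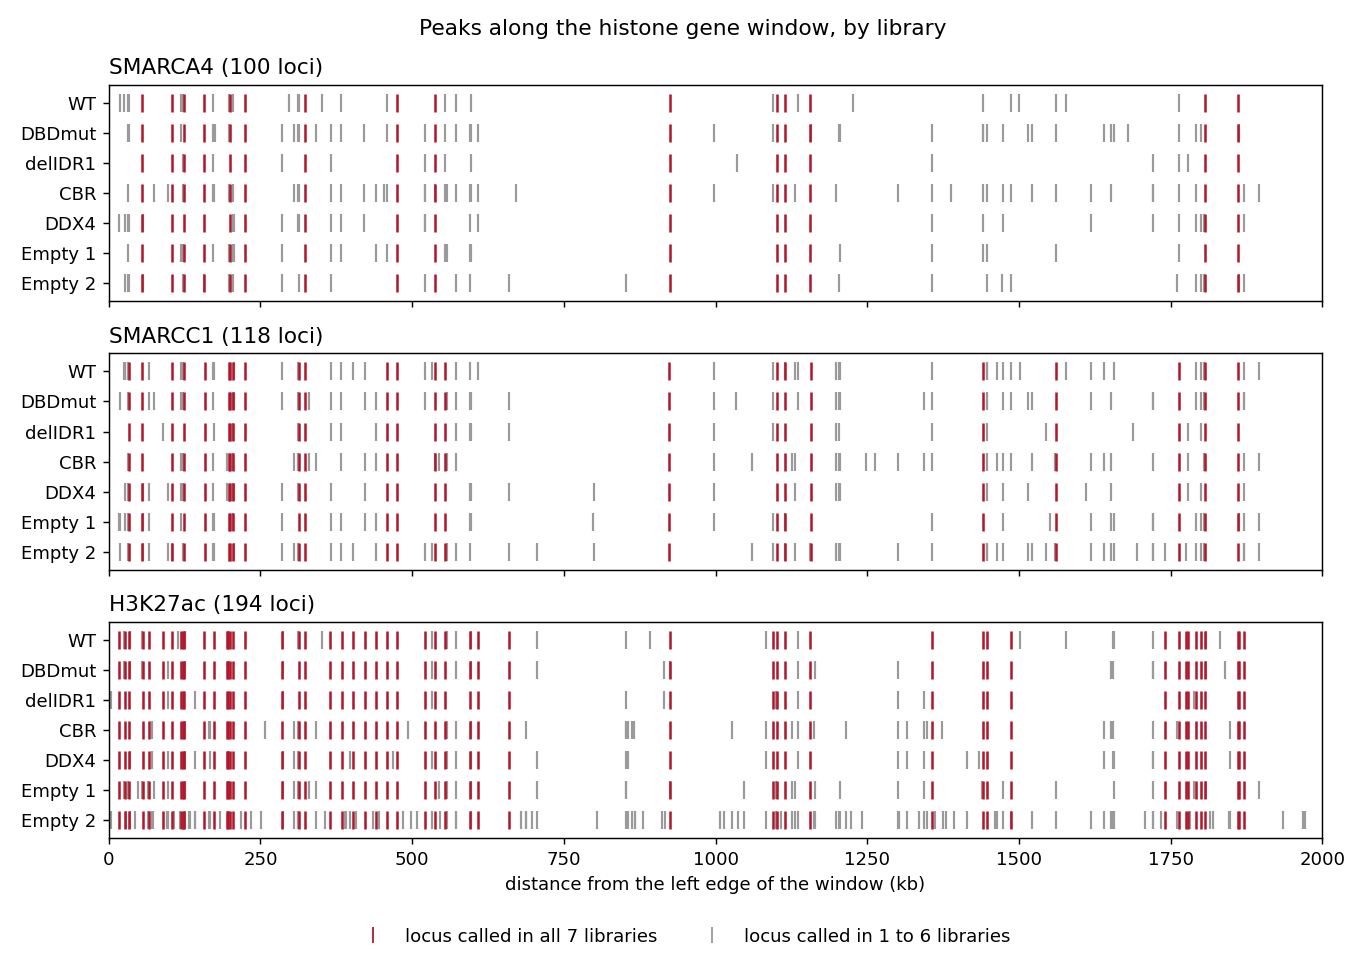
Position of the merged loci along the window, in kb from its start (horizontal axis), for SMARCA4, SMARCC1 and H3K27ac, with 1 row of marks per library and Empty at the bottom of each panel. The 15, 24 and 52 loci with a peak in all 7 libraries (red) line up as columns, mostly in the first 600 kb and the last 900 kb.

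No locus of any of the 3 antibodies had a peak in all 5 ARID1A forms and in neither Empty replicate. A count of 0 allows a share of up to 3% of SMARCA4 loci, 2.54% of SMARCC1 loci and 1.55% of H3K27ac loci, and the genome-wide shares were 0.351%, 0.259% and 0.259%, so a share as small as the genome-wide one was not detectable here. WT and DBDmut shared a locus absent from both Empty replicates at 3 of 100 loci for SMARCA4 (3%, against 8.65% genome-wide), 2 of 118 for SMARCC1 (1.69%, against 9.69%) and 0 of 194 for H3K27ac (against 5.92%). The reverse pattern, both Empty replicates and no ARID1A form, occurred at no SMARCA4 locus (against 0.175% genome-wide), at no SMARCC1 locus (against 1.12%) and at 6 H3K27ac loci (3.09%, interval 1.43 to 6.58%, against 1.03%). H3K27ac loci of both Empty replicates and WT were also above the genome-wide share (61 of 194, 31.4%, against 13.4%).

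Loci of all 7 libraries coincided between antibodies. The overlaps between loci were not counted genome-wide, so they describe the window and do not show a trait particular to it. All 15 SMARCA4 loci of this kind overlapped both an H3K27ac locus of all 7 libraries and a SMARCC1 locus of all 7 libraries. Of the 24 SMARCC1 loci, 23 (95.8%) overlapped an H3K27ac locus of all 7. Among loci seen in 1 library only, 11 of 37 for SMARCA4 (29.7%) and 11 of 32 for SMARCC1 (34.4%) did so. Seen from the acetylation, all 52 H3K27ac loci of all 7 libraries held a SMARCC1 peak of at least 1 library and 46 held a SMARCA4 peak. A peak of either subunit lay in 71.4% of the 21 loci of 4 to 6 libraries, in 26.3% of the 38 loci of 2 or 3, and in 15.7% of the 83 loci of 1 library. Locus width moved with this count: the median was 1286 bp for loci of all 7 libraries, 498 bp for 4 to 6, 372 bp for 2 or 3 and 221 bp for 1. Merging more lists widens a locus, and a wider locus meets more peaks, so width and overlap are not independent here.

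**Figure D3:**
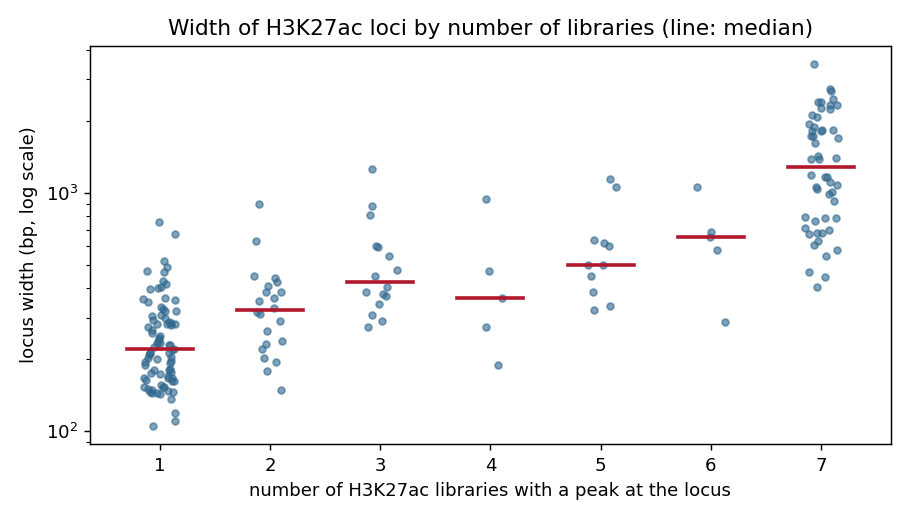
Width of each H3K27ac locus of the window in bp (vertical log axis) by the number of libraries with a peak in it (horizontal axis), 1 point per locus, with a red line at each median. Median width was 1286 bp for the 52 loci of all 7 libraries and 221 bp for the 83 loci of 1 library.

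The widest H3K27ac locus of all 7 libraries ran from 26155592 to 26159067, 3476 bp. Its strongest peak ranked 1144 in WT, 1091 with DBDmut, 2137 with delIDR1, 3786 with CBR and 799 with DDX4, against 1123 and 2704 in Empty, counted from the strongest peak of each list. Ranks are given only to place a peak within its own list, since the lists differ in length. The next widest ran from 26054954 to 26057690 (2737 bp), from 27804379 to 27807047 (2669 bp), from 26171653 to 26174128 (2476 bp) and from 26204389 to 26206808 (2420 bp). The locus from 27100121 to 27102536 (2416 bp) was the strongest of the 10 widest, with ranks of 92, 253, 183, 328 and 111 in the forms, against 126 and 437 in Empty. It thus stood among the first 500 peaks of all 7 lists. The others of the 10 widest began at 27113305 (2343 bp), 26087560 (2342 bp), 26031982 (2274 bp) and 26536853 (2248 bp). The one at 26087560 was the weakest, with ranks of 10814, 4955, 12824, 12351 and 9094 in the forms, against 4043 and 14980 in Empty.

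The question of which peaks go with ARID1A was put first to WT against both Empty replicates. A WT peak with no overlapping peak in either Empty replicate is called gained here, as a name for this pattern and not for a cause. For SMARCA4, 12 of the 47 WT peaks were gained (25.5%, Wilson 95% interval 15.3 to 39.5%), against 63.7% of the whole WT list. For SMARCC1 it was 8 of 71 (11.3%, interval 5.82 to 20.7%), against 57.2%. For H3K27ac it was 7 of 103 (6.80%, interval 3.33 to 13.4%), against 40.0%. The window thus had fewer gained peaks than the genome for all 3 antibodies. Set against Empty replicate 2 alone, 20 SMARCA4, 13 SMARCC1 and 13 H3K27ac peaks of WT were gained, and against Empty replicate 1 alone 16, 24 and 18. Each of these shares stayed below the genome-wide share in the same setting, for example 17.5% against 57.8% for H3K27ac with Empty replicate 1.

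The Empty replicates also differed from each other, which sets the scale for these counts. Empty replicate 2 lacked 12.6% of the WT H3K27ac peaks of the window and 18 of the 128 of Empty replicate 1 (14.1%, against 21.6% of the whole list). It lacked 18.3% of the WT SMARCC1 peaks and 13 of the 62 of Empty replicate 1 (21%, against 33.7%). For these 2 antibodies WT thus lost no larger share of its window peaks in Empty replicate 2 than Empty replicate 1 did, whereas over the whole WT lists Empty replicate 2 lacked 43.1% of H3K27ac and 62.0% of SMARCC1 peaks. For SMARCA4 the share was larger, at 42.6% of the WT peaks (against 68.7% of the whole WT list) and 13 of the 41 of Empty replicate 1 (31.7%, against 34.8%). Empty replicate 1 lacked 17.5% of the WT H3K27ac peaks (against 57.8% of the whole WT list) and 91 of the 183 of Empty replicate 2 (49.7%, against 75.3%), 33.8% of the WT SMARCC1 peaks (against 65.7%) and 34 of 82 (41.5%, against 43.7%), and 34.0% of the WT SMARCA4 peaks (against 73.6%) and 18 of 42 (42.9%, against 62.7%). In that direction the share was smaller for WT with all 3 antibodies.

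At the other end, 14 of the 47 WT SMARCA4 peaks overlapped a peak in every one of the other 6 libraries (29.8%, interval 18.7 to 44.0%, against 15.0% of the whole list). For SMARCC1 it was 24 of 71 (33.8%, interval 23.9 to 45.4%, against 14.7%), and for H3K27ac 62 of 103 (60.2%, interval 50.5 to 69.1%, against 24.6%). Those 62 peaks held 82.0% of the bases that WT H3K27ac peaks covered in the window. A WT peak of either BAF subunit lay in 46 of the 62 (74.2%, against 66.3% of such peaks genome-wide), in 3 of the 7 gained ones (42.9%, against 33.2%) and in 55 of all 103 (53.4%, against 38.1%).

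**Figure D4:**
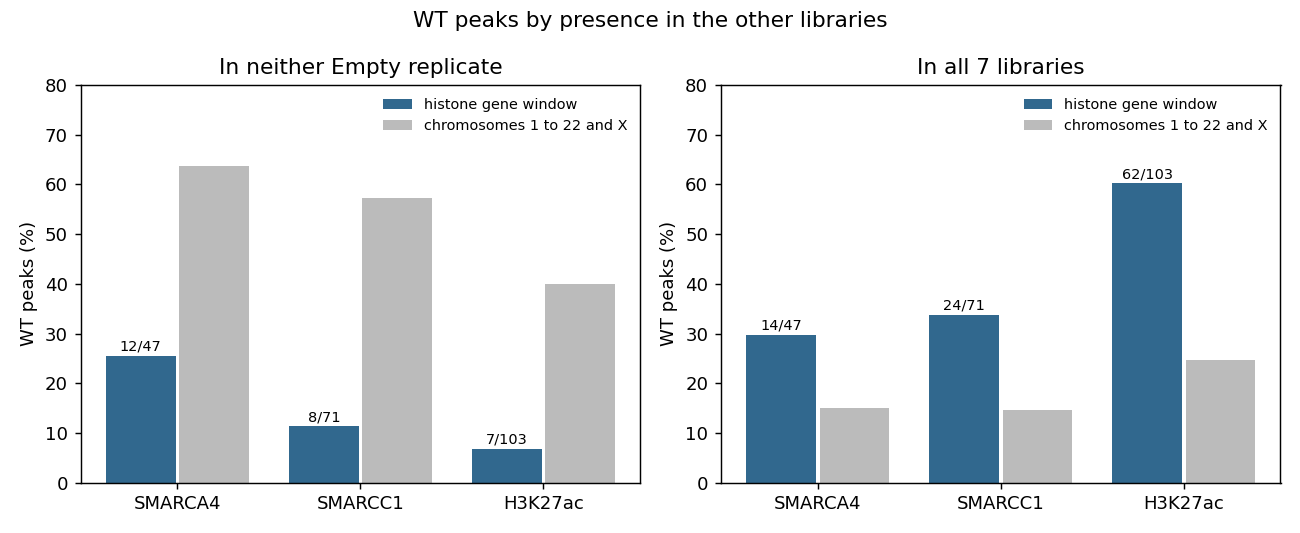
Share in percent (vertical axis, from 0) of WT peaks found in neither Empty replicate and of WT peaks found in all 7 libraries, in the histone window (blue bars, with counts) and, to their right, in the whole WT list (grey bars), by antibody. Peaks in neither Empty replicate were rarer in the window (25.5, 11.3 and 6.80%) than in the whole list (63.7, 57.2 and 40.0%), and peaks of all 7 libraries were more frequent.

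In the WT lists the median window peak lay at 34.3% of the list for SMARCA4, 24.0% for SMARCC1 and 18.8% for H3K27ac, counted from the strongest. The WT peaks were also split at the median rank of the whole WT list, a split made after the data were seen. Above the median, 3 of 32 SMARCA4 peaks were gained (9.38%, against 51.0% of such peaks genome-wide), 4 of 52 SMARCC1 peaks (7.69%, against 41.1%) and 1 of 72 H3K27ac peaks (1.39%, against 28.4%). Below it, the shares were 9 of 15 (60%, against 76.5%), 4 of 19 (21.1%, against 73.4%) and 6 of 31 (19.4%, against 51.6%). As plain shares, the gained share of the window was below that of the genome on both sides of the median. No intervals were calculated for this split. The gap was smallest for the weaker SMARCA4 peaks, where 9 of 15 is too small a count to set 60% apart from 76.5%. For those peaks a difference between window and genome was therefore not shown.

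WT peaks of the window were also found again in single libraries more often than those of the whole list. For SMARCA4, 70.2% were found with DBDmut, 42.6% with delIDR1, 76.6% with CBR and 53.2% with DDX4, against 66.0% and 57.4% in Empty, where the whole list gave 54.0%, 35.0%, 38.2% and 32.3%, against 26.4% and 31.3%. For SMARCC1, the window gave 77.5%, 52.1%, 66.2% and 63.4% in these forms, against 66.2% and 81.7% in Empty, and the whole list 51.4%, 32.5%, 31.5% and 29.0%, against 34.3% and 38.0%. For H3K27ac, the window gave 84.5%, 69.9%, 71.8% and 88.3%, against 82.5% and 87.4%, and the whole list 60.9%, 51.8%, 42.7% and 49.0%, against 42.2% and 56.9%. In the whole lists DBDmut recovered most WT peaks of each antibody. In the window CBR came first for SMARCA4, Empty replicate 2 for SMARCC1 and DDX4 for H3K27ac, and delIDR1 came last for all 3. The delIDR1 libraries were also the shallowest for SMARCC1 (1.32 fragments per kb) and H3K27ac (3.59), with the shortest H3K27ac list (31745 peaks). For SMARCA4, DBDmut was shallower (0.913, against 1.03 for delIDR1). The part of depth and list length in this order was not tested.

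**Figure D5:**
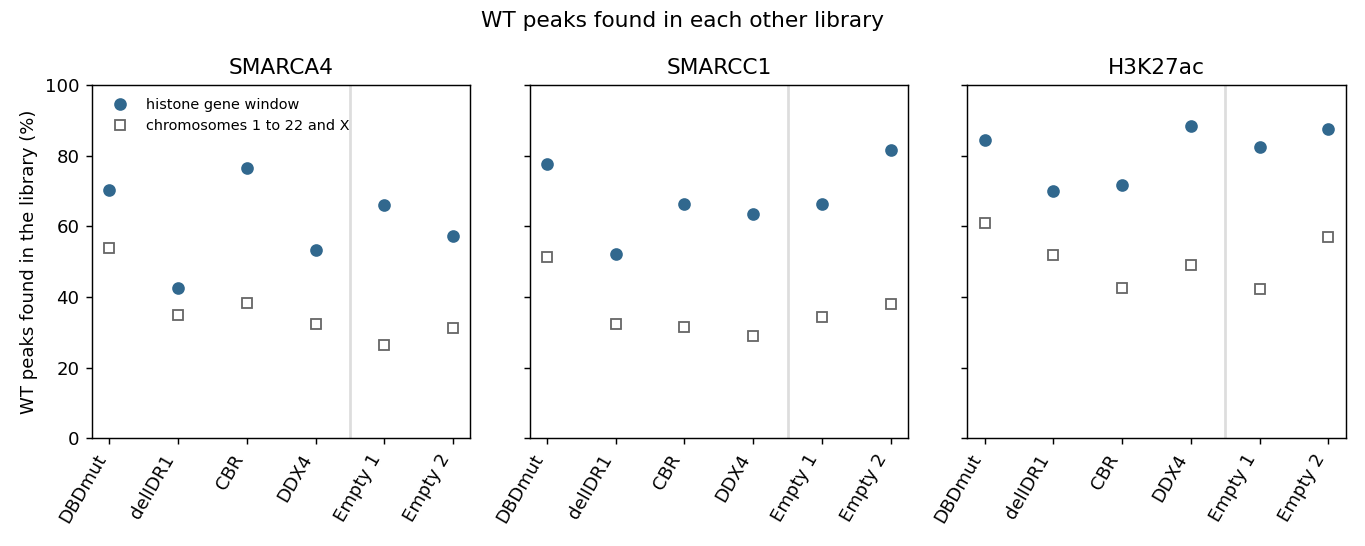
Percent of WT peaks found again in each other library (vertical axis, from 0), for the histone window (filled points) and for the whole WT list (open squares), with the ARID1A forms left of the Empty replicates. Window values lie above whole-list values in all 6 libraries for all 3 antibodies, for example 82.5% against 42.2% for H3K27ac in Empty replicate 1.

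The mutant forms had few H3K27ac peaks of their own. Of the window's H3K27ac peaks, 2 of 90 with DBDmut were in neither Empty replicate (2.22%, against 33.1% of the whole list), as were 1 of 81 with delIDR1 (1.23%, against 31.2%), 4 of 107 with CBR (3.74%, against 20.4%) and 3 of 95 with DDX4 (3.16%, against 15.4%). SMARCC1 gave 6 of 73 with DBDmut (8.22%, against 44.0%), 3 of 46 with delIDR1 (6.52%, against 31.0%), 12 of 72 with CBR (16.7%, against 34.3%) and 4 of 57 with DDX4 (7.02%, against 18.3%). SMARCA4 gave 19 of 60 with DBDmut (31.7%, against 58.9%), 3 of 28 with delIDR1 (10.7%, against 44.4%), 26 of 68 with CBR (38.2%, against 57.8%) and 9 of 43 with DDX4 (20.9%, against 32.2%). SMARCA4 had the largest share in each of the 4 mutants and in WT. The Empty lists to which these peaks were matched held 36348 and 92057 H3K27ac peaks, 13641 and 15461 SMARCC1 peaks and 5567 and 9409 SMARCA4 peaks, and the part of list length in the order of the antibodies was not tested.

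Where the WT lists of both subunits had overlapping peaks, the SMARCA4 peak is called a BAF site. There were 42 such sites among the 47 WT SMARCA4 peaks of the window (89.4%, against 75.2% genome-wide), over 38 distinct SMARCC1 peaks. A site was gained when neither subunit had a peak there in either Empty replicate, and constitutive when both subunits had a peak in both. The window had 5 gained sites (11.9%, interval 5.19 to 25.0%, against 45.0% of BAF sites genome-wide) and 21 constitutive sites (50%, interval 35.5 to 64.5%, against 26.5%), and the other 16 were mixed. Against Empty replicate 1 alone, 8 sites were gained. Both subunits had a peak in all 7 libraries at 13 of the 42 sites (31.0%, against 17.1%).

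None of the 5 gained sites had both subunits in any mutant form. This count allows a share of up to 60% if 3 counts are allowed, and its Wilson 95% interval ends at 43.4%. Genome-wide, both subunits had a peak at 35.5% of gained sites with DBDmut, 14.0% with delIDR1, 5.50% with CBR and 0.479% with DDX4. Counting either subunit, DBDmut had a peak at 1 of the 5 sites (against 60.6%) and CBR at another (against 16.0%), and delIDR1 (against 32.8%) and DDX4 (against 6.11%) had none. Counted by SMARCA4 alone, 3 of the 12 gained SMARCA4 peaks were found with DBDmut (interval 8.89 to 53.2%, against 36.0% genome-wide), 0 with delIDR1 (against 18.0%), 4 with CBR (interval 13.8 to 60.9%, against 14.9%) and 1 with DDX4 (interval 1.49 to 35.4%, against 5.95%). With 12 peaks these shares could not be told apart from the genome-wide ones.

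The gained site of smallest summed rank in WT ran from 27136435 to 27136596. Its SMARCA4 peak ranked 3477 in WT with a fold enrichment of 8.75 over local background, and its SMARCC1 peak ranked 2599 with a fold of 12.7. DBDmut also had SMARCC1 there, and H3K27ac was present in every library except Empty replicate 1. The site from 27500664 to 27500841 (ranks 5984 and 5366, folds 7.14 and 9.73) and the site from 27576864 to 27577199 (ranks 4152 and 11872, folds 8.27 and 7.14) had SMARCA4, SMARCC1 and H3K27ac in WT and in none of the other libraries. These were the positions of the window where all 3 marks came with WT alone. They lay 13.2 kb and 89.4 kb from the nearest H3K27ac locus of all 7 libraries. The site from 26554117 to 26554227 (ranks 7273 and 11691) had SMARCA4 in CBR too and H3K27ac in WT, DBDmut and delIDR1. It lay at the edge of a SMARCA4 locus that also held a peak of Empty replicate 1, and within a SMARCC1 locus and an H3K27ac locus of all 7 libraries. Its WT SMARCC1 peak also covered the mixed site that began at 26554389 and overlapped a SMARCC1 peak of Empty, so its call turned on the ends of the SMARCA4 peak and neither subunit was clearly gained there. The weakest, from 26025784 to 26025987 (ranks 9520 and 20274, folds 5.60 and 3.95), had H3K27ac in WT, DBDmut and Empty replicate 1 and lay 373 bp from a locus of all 7 libraries.

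The first 10 constitutive sites by summed rank included the strongest BAF sites of the window. The first ran from 27100463 to 27100861, with WT ranks of 65 for SMARCA4 and 57 for SMARCC1. Its SMARCA4 locus had folds of 22 in WT, 21.9 with DBDmut, 22.6 with delIDR1, 20.1 with CBR and 18.7 with DDX4, against 21.5 and 14.9 in Empty, each against its own library's background. It ranked 65, 58, 60, 68 and 62 in the forms, against 51 and 92 in Empty, so it was among the first 100 SMARCA4 peaks of all 7 lists. It ranked 57, 45, 47, 61 and 49 in the SMARCC1 lists of the forms, against 53 and 91 in Empty. The second ran from 26124017 to 26124364 (WT ranks 84 and 147), and its SMARCA4 locus ranked 84, 151, 206, 129 and 390 in the forms, against 113 and 217 in Empty.

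Next came the sites that began at 27114643 (WT ranks 326 and 510), 26923887 (2464 and 443), 26158025 (2569 and 405), 27860864 (1227 and 2117), 26323203 (1253 and 2288), 27805999 (2357 and 1280) and 26474221 (3790 and 860). All of these, like the first 2, had both subunits in all 7 libraries. The tenth by rank, at 26158333, lacked SMARCA4 in delIDR1 and SMARCC1 in CBR. It shared its WT SMARCC1 peak with the site at 26158025, so the pair is not independent.

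Both subunits were found at 18 of the 21 constitutive sites with DBDmut (85.7%, against 94.2% of constitutive sites genome-wide), 15 with delIDR1 (71.4%, against 75.4%), 18 with CBR (against 86.1%) and 18 with DDX4 (against 87.7%). At the site from 27113637 to 27113812, WT and both Empty replicates had a peak of both subunits and no mutant had a peak of either. An HA peak of DDX4 cells did overlap it. It came last of the 21 by summed WT rank and lay within a merged SMARCA4 locus of all 7 libraries. All 21 sites carried H3K27ac in all 7 libraries (interval 84.5 to 100%, against 86.0% genome-wide) and lay within H3K27ac loci of all 7. The genome-wide share lay within this interval. At the 16 mixed sites both subunits were found at 13 with DBDmut (81.2%, interval 57.0 to 93.4%, against 67.2% of mixed sites genome-wide), 2 with delIDR1 (interval 3.5 to 36.0%, against 34.7%), 13 with CBR (interval 57.0 to 93.4%, against 48.1%) and 4 with DDX4 (25.0%, interval 10.2 to 49.5%, against 36.3%). The CBR share was above the genome-wide one beyond its interval, and those of the other mutants were not set apart in this way. Empty replicate 1 had both subunits at 7 of the 16 (43.8%, interval 23.1 to 66.8%, against 16.7%). Empty replicate 2 had them at 5 (31.2%, interval 14.2 to 55.6%, against 37.6%). The replicates thus lay on opposite sides of the genome-wide shares, and their occupancy defines the class. SMARCA4 was in all 7 libraries at none of the 16 (against 0.936%) and SMARCC1 at 6 (37.5%, against 28.5%), while H3K27ac was in all 7 at 13 (81.2%, against 65.9%). delIDR1 had the shortest SMARCA4 list of the forms, at 7130 peaks, and DDX4 the next, at 8784, and the part of list length in these counts was not tested.

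Most of the 42 BAF sites were acetylated with and without an ARID1A form. H3K27ac overlapped 41 sites in WT (97.6%, against 90.4% of BAF sites genome-wide), 38 with DBDmut (90.5%, against 81.5%), 36 with delIDR1 (85.7%, against 76.5%), 37 with CBR (88.1%, against 59.0%) and 37 with DDX4 (against 61.9%), against 38 in Empty replicate 1 (90.5%, against 55.3%) and 38 in Empty replicate 2 (against 61.2%). In the window the Empty replicates were 3 sites below WT. H3K27ac was in all 7 libraries at 34 of the 42 sites (81.0%, interval 66.7 to 90%, against 44.9%).

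The 7 gained H3K27ac peaks of WT were weak in their own list, as were gained peaks genome-wide. Their median -log10 q was 7.28, against 7.13 for gained WT peaks genome-wide and 9.56 for the whole WT list. The strongest, from 26351789 to 26352092, had a -log10 q of 10.6 and ranked 23281, and a WT SMARCA4 peak in neither Empty replicate lay in it. The next, from 27500656 to 27501175 (-log10 q 8.47), and the fifth, from 27576521 to 27577190 (-log10 q 5.01), held the WT-only BAF sites described above. The others ran from 27830310 to 27830673 (7.84), from 26892092 to 26892269 (7.28), from 26113866 to 26114018 (3.73) and from 27135774 to 27135921 (2.91), and WT had no peak of either subunit in them. The last was also found in delIDR1, and none of the 7 was found in DBDmut, CBR or DDX4 (genome-wide shares 41.2%, 7.70% and 7.50%, and 33.1% in delIDR1). A count of 0 of 7 allows a share of up to 42.9% if 3 counts are allowed, while its Wilson 95% interval ends at 35.4%. The genome-wide DBDmut share of 41.2% lay between these limits, so 7 peaks did not settle whether the window differed.

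In the other direction, a peak of Empty replicate 1 that Empty replicate 2 also had and WT lacked was found at 7 of 28 SMARCA4 sites (25.0%, interval 12.7 to 43.4%, against 24.2% genome-wide), 7 of 49 SMARCC1 sites (14.3%, interval 7.10 to 26.7%, against 21.2%) and 17 of 110 H3K27ac sites (15.5%, interval 9.88 to 23.4%, against 20.2%). The genome-wide shares lay within these intervals. Counted over merged loci the pattern gave 5 of 100 for SMARCA4 (5.00%, interval 2.15 to 11.2%, against 2.29% genome-wide), 7 of 118 for SMARCC1 (5.93%, interval 2.90 to 11.7%, against 4.06%) and 16 of 194 for H3K27ac (8.25%, interval 5.14 to 13.0%, against 3.10%), so that over loci the H3K27ac share was above the genome-wide one. Shares over loci are of all loci of an antibody. H3K27ac loci of both Empty replicates and WT were also more frequent here than genome-wide (61 of 194, 31.4%, against 13.4%). Taken from 1 Empty replicate at a time, the shares that WT lacked were below those of the whole list for all 3 antibodies. WT lacked 19 of the 42 SMARCA4 peaks of Empty replicate 2 (45.2%, interval 31.2 to 60.1%, against 58.9%), 26 of its 82 SMARCC1 peaks (31.7%, interval 22.6 to 42.4%, against 42.7%) and 100 of its 183 H3K27ac peaks (54.6%, interval 47.4 to 61.7%, against 71.2%). It lacked 12 of the 41 SMARCA4 peaks of Empty replicate 1 (29.3%, interval 17.6 to 44.5%, against 39.1%), 13 of its 62 SMARCC1 peaks (21%, interval 12.7 to 32.6%, against 39.2%) and 29 of its 128 H3K27ac peaks (22.7%, interval 16.3 to 30.6%, against 32.0%). The direction of the comparison with the genome thus depended on how such sites were counted.

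The 7 SMARCA4 sites of both Empty replicates that WT lacked mostly had other peaks. All 7 had SMARCA4 with DBDmut (against 68.6% of such sites genome-wide), 2 with delIDR1 (against 34.4%), 6 with CBR (against 56.8%) and 6 with DDX4 (against 76.5%). WT had SMARCC1 at 6 of them (85.7%, against 79.2%), and H3K27ac was present at all 7 in all 7 libraries (against 68.3%). The strongest ran from 26157233 to 26157403 (-log10 q 11.6 in Empty replicate 1), inside the widest H3K27ac locus. The next, from 26103736 to 26103997 (9.54), had SMARCC1 in all 7 libraries. Both lay within merged SMARCA4 loci that hold a WT peak elsewhere, which is why the pattern had 7 sites but 5 loci. Of the other sites, the one from 27356464 to 27356587 (8.39) had SMARCA4 in every library except WT. Among SMARCC1 sites the strongest ran from 27870222 to 27870353 (18.5), with SMARCC1 in DBDmut, CBR and DDX4 too. The site from 26056640 to 26056763 (9.21) had SMARCC1 in DDX4 as its only form.

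The strongest H3K27ac site of both Empty replicates without a WT peak ran from 26097675 to 26097802 (-log10 q 20.5 in Empty replicate 1) and was found in DBDmut, delIDR1 and DDX4. The one from 27343043 to 27343812 (20.5) was found in delIDR1, CBR and DDX4, the one from 27163583 to 27163744 (18.1) in DBDmut, and the one from 26553668 to 26553972 (15.6) in DBDmut and delIDR1. The last lay within a merged H3K27ac locus of all 7 libraries. The site from 27560485 to 27560670 (15.0) had H3K27ac in no ARID1A form, although SMARCC1 was present there in all 7 libraries and SMARCA4 in WT, DBDmut, CBR and Empty replicate 1. It was the strongest, in Empty replicate 1, of the 6 H3K27ac loci found in both Empty replicates and no form. The others began at 26064885, 27046762, 27130082, 27205082 and 27473296, with a -log10 q of 3.74 to 7.22 in Empty replicate 1.

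The HA library of DDX4 cells, the one direct readout of an ARID1A form here, had 33 peaks in the window of 5390 in the list, or 61.2 per 10000. Of these, 24 overlapped a SMARCA4 peak of the same cells (72.7%, against 61.7% of the HA list), 23 a SMARCC1 peak (69.7%, against 53.0%) and 32 an H3K27ac peak (97.0%, against 77.1%). An H3K27ac peak of each of the 7 libraries overlapped 29 of the 33 (87.9%, against 61.1%). SMARCC1 of Empty replicate 2, which has no HA-tagged form, also overlapped 29 (87.9%, against 69.4%).

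The strongest HA peak ran from 27100240 to 27100972, ranked 30 in its list and had a fold of 16.2, over the strongest constitutive BAF site. The next ran from 26123867 to 26124570 (rank 70, fold 11.9), from 26157233 to 26158503 (rank 232, fold 7.95), from 27114501 to 27115116 (rank 343, fold 8.33) and from 26923870 to 26924806 (rank 492, fold 8.98), and each of the 5 had SMARCA4 in all 7 libraries. HA peaks lay on 20 of the 21 constitutive BAF sites (95.2%, interval 77.3 to 99.2%, against 67.8% genome-wide), on 3 of the 16 mixed sites (18.8%, interval 6.59 to 43.0%, against 24.8%) and on none of the 5 gained sites (against 3.24%). The order of the 3 classes was the same genome-wide. The remaining 28 HA peaks ranked from 610 to 4856. An HA peak from 26802076 to 26802299, the weakest of the 33, overlapped no peak of the other 21 lists, where 16.0% of the HA list did so. No HA library of another construct was analysed here, so HA signal in cells without the tag was not measured.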

How the data were processed

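SMARCA4, SMARCC1, H3K27ac and, in DDX4 cells, HA were profiled by CUT&Tag, and the title of each sample gave its construct and antibody. Per the submitters' processing notes the build was hg19 and bcl2fastq was used. The sources used here do not name the aligner, duplicate handling, peak caller or control. The authors deposited 1 peak list per library in 10-column layout, with a fold enrichment (a ratio to local background), a -log10 p-value, a -log10 q-value and a score per peak; lists ended just above the -log10 of a q of 0.01. These deposited values rank or describe peaks inside 1 list, never across lists. No sample column was left unused.

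Peaks on chromosomes 1 to 22 and X were matched with at least 1 bp shared (Python 3.11.15, numpy 2.4.6, pandas 2.3.3, scipy 1.17.1, matplotlib 3.10.9), and the matching was tested on simulated data. Whole-list shares include the window. Depth per library was estimated from the deposited fold and -log10 p, which together gave whole pileups within 0.001 in -log10 p. It is the lowest background divided by the shortest peak, in fragments per kb, and compares libraries of 1 antibody. Shares have Wilson 95% intervals, and a count of 0 allows 3 counts. Scaled peak numbers were compared by two-sided exact permutation tests.

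Sites named are all gained BAF sites, the first 10 constitutive sites by summed WT rank, the gained H3K27ac peaks, the 10 widest H3K27ac loci of all 7 libraries, the 5 strongest H3K27ac and BAF sites of Empty without WT, and HA peaks (the first 5 with full values). The site at 27113637, the 6 loci of Empty alone and the split at the median rank were chosen after their values were seen. The window, the lists and the tests were chosen with earlier results of these data known. No hg19 genome or annotation was used, so no sequence is shown.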

Additional observations from a re-analysis of the deposited data

How the results depend on the processing

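Over 103 results and 664 alternative values, 557 were labelled unchanged, 103 moved and 4 turned direction. Unchanged meant the same direction and side of the threshold for differences, and within 1.5 times for counts. For the number of lists with a peak at a named site, it meant within the exact binomial 95% interval of the reported number. That interval is wide for so few lists, so such a number could change by more than 1.5 times and still be labelled unchanged. The cause of a move was not tested unless stated. The SMARCA4 difference in scaled peak number turned to 7.70 when peaks were not scaled to the list. Leaving out 1 library gave SMARCA4 differences of -30.3 to -1.30, SMARCC1 differences of -6.77 to 1.15 and H3K27ac differences of -11.0 to 4.32. Leaving out 1 Empty replicate leaves a less strict class by construction: gained WT peaks then numbered 16 to 20 (SMARCA4), 13 to 24 (SMARCC1) and 13 to 18 (H3K27ac), Empty sites without WT 12 to 19, 13 to 26 and 29 to 100, and gained BAF sites 6 to 8, with both subunits at 1 to 2 of them in DBDmut, 0 to 3 in CBR and 0 to 1 in DDX4. Without Empty replicate 1, 5 of 13 gained H3K27ac peaks were found in DBDmut (38.5%, against 43.0% genome-wide) and 3 in delIDR1 (against 34.7%). CBR had 1 (against 8.37%) and DDX4 2 (against 9.93%). Without Empty replicate 2 it was 7 of 18 in DBDmut (38.9%, against 42.4%) and 4 in delIDR1 (against 34.1%). CBR then had 5 (27.8%, against 19.1%) and DDX4 10 (55.6%, against 20.6%). The counts of 0 for H3K27ac in DBDmut, CBR and DDX4 thus did not hold when either Empty replicate was left out. With lists cut to the same length per antibody (5567, 9685 and 31745 peaks), gained peaks numbered 2, 5 and 4, and gained BAF sites 1. With a -log10 q of at least 5, SMARCC1 sites of Empty without WT numbered 4. The 1 gained H3K27ac peak found in delIDR1 became 0 under both settings and with 50% overlap. With summits within 250 bp, H3K27ac had 12 gained peaks and 39 of all 7 libraries, and gained peaks were found at 1 in DBDmut, 1 in CBR and 2 in DDX4. By SMARCA4 alone there were 12 gained sites (3 in DBDmut, 4 in CBR, 1 in DDX4), and by SMARCC1 alone 8 gained (2 in DBDmut, 1 in CBR) and 42 constitutive. Above the median WT rank, chosen after seeing the data, gained peaks numbered 3, 4 and 1. The gained share was below the genome-wide one in every setting, ranging over 7.14 to 42.6% (SMARCA4), 7.69 to 33.8% (SMARCC1) and 1.39 to 17.5% (H3K27ac). No paired analysis was possible because replicate numbers exist only for Empty. WT is 1 library, so no class of site has a replicate check in WT, and shallow BAF lists limit what absence of a peak shows.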
